A study of Mus musculus with 14 samples.

Results

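Binding sites of Sin3A and Sin3B in differentiated C2C12 myotubes were compared. The deposited peak list of each protein, 759 peaks for Sin3A and 3769 for Sin3B out of 7606 in all lists of the series, was entered once, and peaks that overlapped by 1 bp or more were merged. This gave 3903 regions, of which 143 held Sin3A only (3.66%), 610 held both proteins (15.6%, called shared here) and 3150 held Sin3B only (80.7%).

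Sin3A and Sin3B are related scaffold proteins with no DNA-binding domain of their own. They carry histone deacetylases HDAC1 and HDAC2, together with subunits such as Ing1 and Brms1, to promoters, where sequence-specific factors recruit them, and they are known mostly as corepressors. In muscle, differentiation takes cells out of the cycle, fuses them into myotubes and turns on sarcomere genes, and Sin3 proteins have been placed at genes of both processes.

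C2C12 is a mouse myoblast line of C3H background. Myoblasts (labelled GM) were kept in medium with 10% fetal bovine serum, and myotubes (labelled MT) came from confluent cultures switched to 2% horse serum, with diluted trypsin used to remove cells that had not differentiated. No genetic change or added agent is given for any group, and the labels name 2 Sin3A and 5 Sin3B samples of myotubes. The files within a group were identical, so each group counted as 1 list and nothing here has a replicate. Both antibodies carry the same catalogue number in the labels, with lot D1505 for the Sin3A myotube samples and lot H0904 for every Sin3B sample. One Sin3A myoblast sample used lot D1505 and the other I2908. The myoblast lists serve here only to ask whether a myotube region was already occupied before differentiation, and they come from 2 samples for each protein. The lists hold positions only, with no height, score or read count, so depth is unknown and a site missing from a list may be unbound or under the caller's threshold. Input samples were not analysed here, and the myotube label could not be checked against marker genes because no expression was measured.

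Gene positions from RefSeq (GRCm38.p6) coincided with the peaks only on chromosome 16 up to position 91648603, on chromosome 19 up to 5732053 and on chromosome 8 up to 13785999. Genes and promoters are therefore described for the 161 regions of these 3 stretches (6 Sin3A only, 28 shared, 127 Sin3B only), and overlap, width and myoblast occupancy for all 3903. The stretches were chosen after the positions had been seen.

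Promoter sequences of genes whose starts lay at or near regions of each class are given for orientation. The 250 bases before the start are given for 2 genes at shared regions whose promoters held the letters bound by ETS factors (Tomm70a, Naxd), for Eif4a2, the shared member of the gene lists, for Cldnd1 at a Sin3A-only region, and for Rfc4 and Mrpl39 at Sin3B-only regions. Capitals mark matches to the ETS motif CCGGAAG or, in Mrpl39, to the NRF1 motif, on either strand. Each line gives the gene, its class and its place in GRCm38.p6, with the sequence 5′ to 3′ along the gene from RefSeq. That reference is not of the C3H strain.
Tomm70a, shared, chr16:57121464-57121713, plus strand: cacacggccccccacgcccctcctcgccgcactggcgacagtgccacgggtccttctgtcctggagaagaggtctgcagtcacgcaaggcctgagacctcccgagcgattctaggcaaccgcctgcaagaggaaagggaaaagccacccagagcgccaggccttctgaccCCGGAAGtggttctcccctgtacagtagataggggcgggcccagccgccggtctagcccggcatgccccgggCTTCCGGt
Naxd, shared, chr8:11497256-11497505, plus strand: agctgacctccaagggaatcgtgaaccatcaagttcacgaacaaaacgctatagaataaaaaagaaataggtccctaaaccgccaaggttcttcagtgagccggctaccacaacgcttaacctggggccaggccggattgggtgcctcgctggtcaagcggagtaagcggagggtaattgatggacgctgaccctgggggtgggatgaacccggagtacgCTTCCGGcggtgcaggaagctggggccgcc
Eif4a2, shared, chr16:23107218-23107467, plus strand: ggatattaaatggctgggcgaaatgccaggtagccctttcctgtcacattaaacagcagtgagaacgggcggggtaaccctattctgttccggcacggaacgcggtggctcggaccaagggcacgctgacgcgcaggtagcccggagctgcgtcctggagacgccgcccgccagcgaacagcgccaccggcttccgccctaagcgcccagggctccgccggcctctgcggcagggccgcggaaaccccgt
Cldnd1, Sin3A only, chr16:58727660-58727909, plus strand: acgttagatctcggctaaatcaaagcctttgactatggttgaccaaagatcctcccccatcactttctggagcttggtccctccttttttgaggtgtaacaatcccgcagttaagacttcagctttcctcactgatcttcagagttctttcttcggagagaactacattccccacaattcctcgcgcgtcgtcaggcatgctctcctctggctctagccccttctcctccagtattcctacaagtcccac
Rfc4, Sin3B only, chr16:23127731-23127980, minus strand: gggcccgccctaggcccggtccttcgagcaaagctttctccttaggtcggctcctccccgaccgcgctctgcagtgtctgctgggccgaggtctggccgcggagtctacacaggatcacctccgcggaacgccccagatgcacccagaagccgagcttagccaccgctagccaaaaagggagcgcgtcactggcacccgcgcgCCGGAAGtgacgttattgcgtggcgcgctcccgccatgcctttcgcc
Mrpl39, Sin3B only, chr16:84735245-84735494, minus strand: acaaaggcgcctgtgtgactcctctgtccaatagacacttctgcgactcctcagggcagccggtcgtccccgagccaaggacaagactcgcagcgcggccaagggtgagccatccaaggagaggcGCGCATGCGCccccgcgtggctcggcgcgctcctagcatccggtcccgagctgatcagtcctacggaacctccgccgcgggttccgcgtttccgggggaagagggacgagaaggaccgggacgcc

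Tomm70a, the mitochondrial import receptor, held the ETS letters 80 and 8 bases before its start, Naxd, a repair enzyme for damaged NAD(P)H, 30 bases before, and Rfc4, a subunit of the replication clamp loader, 47 bases before. Mrpl39, of the mitochondrial ribosome, held the NRF1 letters 125 bases before its start. In the windows of Eif4a2 and Cldnd1 neither motif occurred. The windows of Tomm70a and Mrpl39 lay wholly inside their regions and 225 bases of that of Rfc4 did. Only 24 bases of the Eif4a2 window and 12 of the Naxd window reached into theirs, and the Cldnd1 window held none of its region, so these 3 show the promoter beside a region and the ETS letters of Naxd lie outside its region. The windows were chosen from 15 that overlap no listed gene, with their matches known. Every window of the 15 with an ETS or NRF1 match is given, and most windows without one are not. The examples therefore do not show how frequent these motifs are.

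Sin3A peaks mostly lay at Sin3B peaks, and the widest peaks of either list were shared more often than the narrowest. A wider peak has more length over which to overlap another, so width enters the rule itself. The shares by width are therefore a description. Of the Sin3A peaks, 616 of 759 (81.2%) overlapped a Sin3B peak, and of the Sin3B peaks 619 of 3769 (16.4%) overlapped a Sin3A peak. With each list split by width into 10 groups of equal size, among the narrowest Sin3A peaks (8 to 322 bp) 45 of 76 were shared (59.2%, 95% Clopper-Pearson interval 47.3 to 70.4%), and among the widest group (694 to 1095 bp) 71 of 76 (93.4%, 85.3 to 97.8%). Between them the share did not climb steadily: it was 78.9% and 76.3% in the third and the fourth group, and 92.1%, 86.8% and 81.6% in the seventh to the ninth. For Sin3B the share was 36 of 377 (9.55%, 6.78 to 13.0%) in the narrowest group (6 to 330 bp), 21 of 377 (5.57%) in the next, and then higher in each group up to 131 of 377 (34.7%, 29.9 to 39.8%) in the widest (933 to 2157 bp). The plot of overlap by width shows every group. Intervals in all sections cover counting error only. A list of 759 Sin3B peaks, the widest ones, in place of all 3769 left 228 shared and 525 Sin3A-only regions. That alternative changes both the length of the list and which peaks it keeps.

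**Figure D1:**
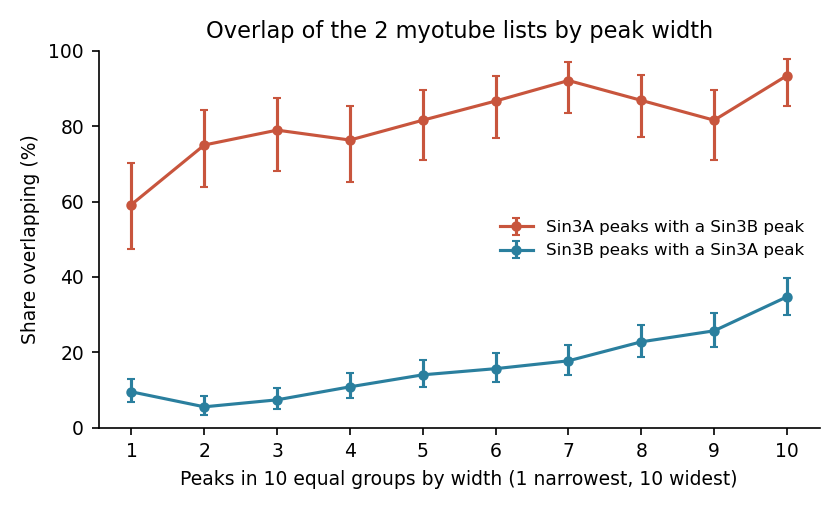
Share of peaks (%, vertical axis from 0) that overlap a peak of the other protein, by peak width, with each myotube list split into 10 groups of equal size (horizontal axis, 1 narrowest, 10 widest). Points are shares with 95% Clopper-Pearson intervals; Sin3A runs from 59.2% to 93.4% and Sin3B from 9.55% to 34.7%.

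Sin3A-only regions were narrow, though widths by class are a description too, since width enters the overlap rule. Their median width was 412 bp, against 490 bp for the Sin3A peaks of shared regions. Sin3B-only regions had a median of 520 bp, against 673.5 bp for Sin3B peaks of shared regions, and shared regions as merged had a median of 739.5 bp. Peaks under 100 bp numbered 12 among Sin3A-only regions, 31 among Sin3B-only regions and 0 among shared ones.

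At shared regions the centres of the peaks mostly lay close together, and the Sin3B peak was more often the broader one. Of the 610, 595 held 1 peak of each protein, 9 held 1 Sin3A and 2 Sin3B peaks, and 6 held 2 Sin3A peaks and 1 Sin3B peak. Over the 595, the median distance between the 2 centres was 85 bp (quartiles 38 and 157.25 bp). The centres lay within 100 bp of each other in 340 (57.1%) and over 300 bp apart in 42 (7.06%). Along the chromosome the offset of Sin3A from Sin3B had a median of -5 bp and ran from -524.5 to 704.5 bp. The Sin3B peak was the wider one in 463 regions (77.8%) and the Sin3A peak in 130, with a median difference of 180 bp. Sin3A lay wholly inside Sin3B in 295 (49.6%), and Sin3B inside Sin3A in 43 (7.23%). The median overlap was 440 bp, which is 99.7% of the Sin3A and 66.7% of the Sin3B peak at the medians of those shares.

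**Figure D2:**
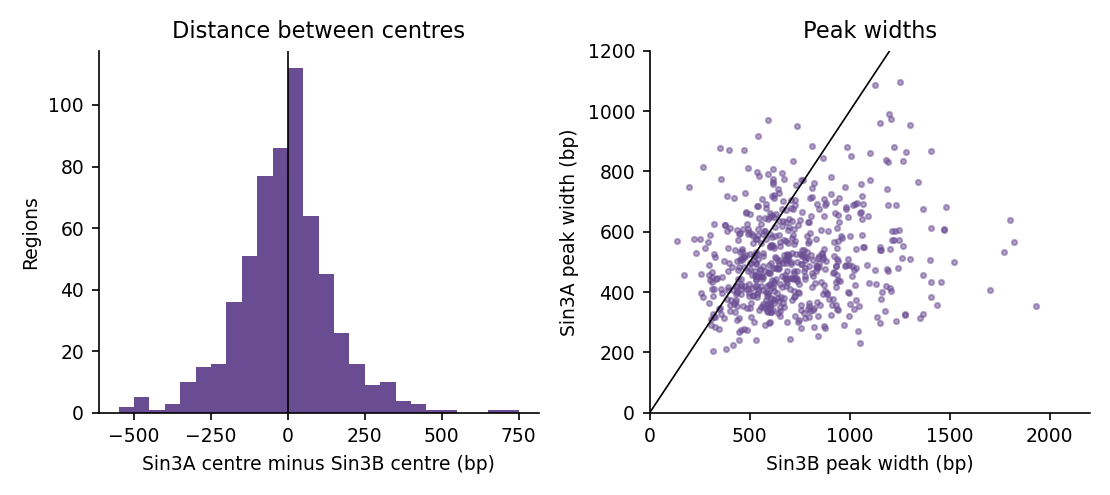
The 595 shared regions with 1 peak of each protein. Left, number of regions by distance of the Sin3A centre from the Sin3B centre (bp, 50 bp bins), gathered around 0 with a median of -5 bp. Right, width of the Sin3A against the Sin3B peak (bp), 1 point per region, with the line of equal width; 463 points lie below it.

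The Sin3A-only regions fell into those beside a Sin3B peak and those far from any. Of the 143, 20 lay within 500 bp of a Sin3B myotube peak and 6 more within 1 kb (26 together, 18.2%). None lay at 1 to 5 kb (upper limit of the interval 2.55%), 4 lay at 5 to 10 kb, 29 at 10 to 50 kb and 84 (58.7%) beyond 50 kb, with a median gap of 65648 bp. Sin3B-only regions were rarely near Sin3A, which has the shorter list: 66 of 3150 (2.10%) lay within 1 kb of a Sin3A peak and 2732 (86.7%) beyond 50 kb. Any neighbouring region within 1 kb was found for 30 of 143 Sin3A-only regions (21.0%, 14.6 to 28.6%), 50 of 610 shared (8.20%, 6.14 to 10.7%) and 476 of 3150 Sin3B-only regions (15.1%, 13.9 to 16.4%). The regions formed 286 such close pairs. In 213 of them both were Sin3B only, in 42 one was Sin3B only and the other shared, and in 23 one was Sin3A only and the other Sin3B only.

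The part of a chromosome's regions that held Sin3A ran from 11.7% (11 of 94, chromosome 18) and 13.3% (25 of 188, chromosome 3) to 25.9% (65 of 251, chromosome 10) and 26.1% (59 of 226, chromosome 15). Sin3A without Sin3B was most frequent, relative to all Sin3A regions, on chromosome X (5 of 7), chromosome 9 (12 of 31, 38.7%) and chromosome 4 (16 of 48, 33.3%), and least on chromosome 13 (2 of 28, 7.14%). These counts are small and were not tested.

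Shared regions more often held a myoblast peak than regions of either protein alone, whichever myoblast list was used. A myoblast peak counted when it overlapped the merged region by 1 bp or more. Shared regions join peaks of both lists and were longer, with a median of 739.5 bp. The medians were 520 bp for Sin3B-only and 412 bp for Sin3A-only regions. The part of region length in the shares below was not tested. A Sin3B myoblast peak lay at 303 of 610 shared regions (49.7%, 45.6 to 53.7%), at 1130 of 3150 Sin3B-only regions (35.9%, 34.2 to 37.6%) and at 22 of 143 Sin3A-only regions (15.4%, 9.90 to 22.4%). Shared regions exceeded Sin3B-only regions by 13.8 percentage points (adjusted p = 4.29e-10, two-sided Fisher's exact test) and Sin3A-only regions by 34.3 points (adjusted p = 2.32e-14, Fisher's exact test). Sin3A-only regions were 20.5 points under Sin3B-only regions (adjusted p = 1.97e-07, Fisher's exact test). With the 759 widest Sin3B peaks in place of all, a Sin3B myoblast peak lay at 145 of 228 shared (63.6%), 293 of 530 Sin3B-only (55.3%) and 180 of 525 Sin3A-only regions (34.3%). The difference between shared and Sin3B-only regions was then 8.31 points (adjusted p = 0.0371, Fisher's exact test).

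A Sin3A myoblast peak lay at 117 of 610 shared regions (19.2%, 16.1 to 22.5%), at 14 of 143 Sin3A-only regions (9.79%, 5.46 to 15.9%) and at 168 of 3150 Sin3B-only regions (5.33%, 4.57 to 6.18%). Shared regions exceeded Sin3B-only regions by 13.8 points (adjusted p = 5.05e-25, two-sided Fisher's exact test) and Sin3A-only regions by 9.39 points (adjusted p = 0.00820, Fisher's exact test). The 4.46 points between Sin3A-only and Sin3B-only regions passed narrowly (adjusted p = 0.0363, Fisher's exact test). That call was lost with an overlap of 50% of the shorter peak (2.30 points, p = 0.198), with merging within 1 kb (3.12 points, p = 0.151) and with peaks of 300 bp or wider (3.23 points, p = 0.0878, all Fisher's exact test, adjusted). The 6 p-values were adjusted together by Benjamini-Hochberg, and they treat regions as independent and compare these lists, not cultures.

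Split by both myoblast lists, 111 of 143 Sin3A-only regions had no myoblast peak, 18 had Sin3B alone, 10 Sin3A alone and 4 both. Among the shared regions the same states held 273, 220, 34 and 83, and among the Sin3B-only regions 1953, 1029, 67 and 101. Peak width moved with these shares. Sin3B-only and shared regions were split into 10 groups by width of the Sin3B peak, not of the merged region. In the narrowest group a Sin3B myoblast peak lay at 8 of 33 shared and 95 of 343 Sin3B-only regions (24.2% against 27.7%). In the widest group it lay at 87 of 130 and 144 of 246 (66.9% against 58.5%). Shared regions were the higher in 7 of 10 groups for Sin3B myoblast peaks and in 10 of 10 for Sin3A myoblast peaks.

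**Figure D3:**
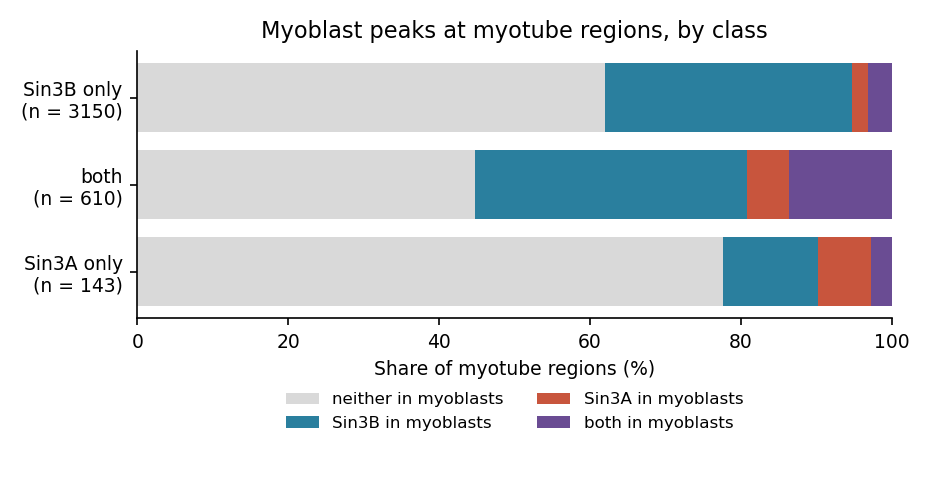
Share (%, horizontal axis from 0 to 100) of the myotube regions of each class that held, in myoblasts, no peak (grey), Sin3B alone (blue), Sin3A alone (red) or both (purple). No myoblast peak was found at 111 of 143 Sin3A-only, 273 of 610 shared and 1953 of 3150 Sin3B-only regions.

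The classes were compared for how often a region lay at a gene start. Chromosome 16 and the stretches were themselves picked because peaks of the 4 lists lay near listed starts or gene ends there, so the height of these shares was largely fixed by the choice and is given as a description. A region counted as at a start when it came within 1 kb of a listed start or, for genes with no entry in the promoter table, of either end of the gene, since their strand is not given. On the whole of chromosome 16 this held for 4 of 5 Sin3A-only, 19 of 22 shared (86.4%, 65.1 to 97.1%) and 87 of 98 Sin3B-only regions (88.8%, 80.8 to 94.3%). No difference between classes was detected (adjusted p = 1 for each of 3 comparisons, two-sided Fisher's exact test), over few Sin3A-only regions. In the 3 stretches it held for 6 of 6, 27 of 28 and 119 of 127 (93.7%). The shared exception lay inside Tfap4, a basic helix-loop-helix factor, 1312 bp from its nearest listed position. Of the 8 Sin3B-only exceptions 7 lay inside a gene, among them 2 in Bcl6, which encodes a zinc-finger repressor, and 1 lay between genes.

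Distances of peak centres from starts are descriptions for the same reason. The median was 191.75 bp downstream over the 6 Sin3A-only regions, 192.5 bp over 109 Sin3B-only regions (79 downstream of the start), and 179.25 bp for Sin3A and 174.5 bp for Sin3B over 26 shared regions (19 downstream for each protein). Along the gene, Sin3A lay downstream of Sin3B in 12 of the 26 and upstream in 14, with a median offset of -14.25 bp. Starts on both strands within 1 kb were found at 2 of 6 Sin3A-only, 7 of 26 shared and 28 of 109 Sin3B-only regions.

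**Figure D4:**
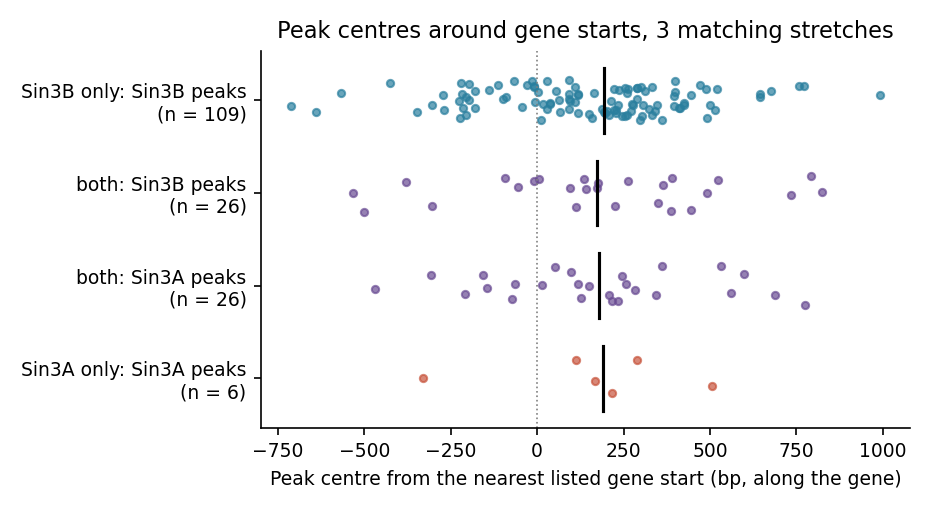
Peak centres relative to the nearest listed gene start (bp, positive downstream along the gene) for regions of the 3 matching stretches, 1 point per peak, scattered vertically for visibility. Black bars are medians, between 174.5 and 192.5 bp downstream in all 4 rows.

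The stretches hold 819 protein-coding genes. A region lay at the start of 176 (21.5%), a shared one at 33 (4.03%), a Sin3B-only one at 137 (16.7%) and a Sin3A-only one at 8 (0.977%). Anks3 and Eaf2 had both a Sin3A-only and a Sin3B-only region, those of Eaf2 at different listed starts. One region between divergent genes was counted for each of them.

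The 6 Sin3A-only regions lay at these 8 genes. Pnpla6, which encodes neuropathy target esterase, had the widest, 584 bp at chr8:3516241-3516824, 39 bp from its start. Nsun3, a methyltransferase of mitochondrial methionine tRNA, had a region of 500 bp across its start (chr16:62786300-62786799), the only one of the 6 with a myoblast peak, of Sin3B. Drap1, a subunit of the NC2 repressor of transcription initiation, shared a region of 493 bp with AI837181 on the other strand (chr19:5424516-5425008). The region at Cldnd1, a claudin-domain gene, was 467 bp wide and lay 274 bp from the listed start. A region of 383 bp lay 98 bp from the start of Iqcb1, a ciliary gene, and 239 bp from a start of Eaf2, an elongation cofactor. Both starts lay on the same side of it. The Sin3B-only region of Eaf2 lay 45704 bp away, across another listed start of that gene. The region at Anks3 was the narrowest, 364 bp, and a Sin3B-only region lay 289 bp from it, a gap shorter than either region.

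The shared genes described next were picked by their known roles after the regions were seen, and no excess of any role was tested. Eif4a2, an RNA helicase of translation initiation, had a Sin3A peak of 375 bp within a region of 1030 bp (chr16:23107444-23108473) that held no myoblast peak. Gspt1, the release factor eRF3, lay 222 bp from a region with Sin3A over 441 bp and Sin3B over 944 bp. Rsl1d1, a nucleolar protein, had 469 bp of Sin3A and 833 bp of Sin3B across its start, and Urb1, also of ribosome biogenesis, had 627 bp and 487 bp. Yars2, the mitochondrial tyrosyl-tRNA synthetase, had 492 bp and 756 bp with a Sin3B myoblast peak, and Trmt2a, a tRNA methyltransferase, lay with Ranbp1, a Ran-binding protein, at 1 region of 530 bp and 712 bp.

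Timmdc1, an assembly factor of respiratory complex I, had 388 bp of Sin3A and 519 bp of Sin3B. Tomm70a had peaks of 533 bp and 532 bp whose centres lay apart, Sin3A 343 bp after and Sin3B 10.5 bp before the start (written -10.5 bp along the gene). Atg3, the conjugating enzyme of LC3, and Slc35a5 shared 452 bp and 816 bp. Polq, DNA polymerase theta, had 591 bp and 645 bp, and Cip2a, an inhibitor of PP2A, had 421 bp and 477 bp. Banf1, a chromatin-binding protein of the nuclear envelope, and Eif1ad lay at a region of 1277 bp, all of it Sin3B, with 326 bp of Sin3A.

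Within the stretches, the widest shared regions were taken by mean rank of the 2 widths. They were those at 1810013L24Rik (Sin3A 867 bp, Sin3B 1404 bp), Fam162a (882 and 985 bp), Cmss1 (694 and 1035 bp) and Naa50 (884 and 814 bp). Next came the region inside Tfap4 (774 and 674 bp), Abhd10 (506 and 817 bp), Ehbp1l1 (432 and 1455 bp) and Synj1 (797 and 535 bp). Myoblast peaks of both proteins lay at Fam162a and Ehbp1l1, of Sin3A alone at Synj1 and Tfap4, of Sin3B alone at Cmss1 and Abhd10, and of neither at 1810013L24Rik and Naa50. Over all 28 shared regions of the stretches, 14 held a Sin3B and 6 a Sin3A myoblast peak. Over the 127 Sin3B-only regions 46 and 3 did.

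The widest Sin3B-only region of all, 2157 bp, lay outside the stretches. Within them the widest lay at Yif1a, of Golgi transport (1321 bp), between Mrpl21 and Ighmbp2 (1206 bp), at Cfap298 (1104 bp) and at Cct8, a chaperonin subunit (1091 bp). Next came those at Cdip1 (1056 bp), between Glyr1 and Ubn1, a histone chaperone subunit (1049 bp), near Pcid2 and Cul4a, a ubiquitin ligase scaffold (1035 bp), and at Abcf3 (955 bp). Those at Yif1a, Mrpl21, Cfap298, Cct8 and Pcid2, held a Sin3B myoblast peak, and Cfap298 also held Sin3A there.

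Of 863 genes in 18 lists of muscle, growth and housekeeping functions, 35 lay in the stretches, too few to rank the lists. A region lay at 20 of the 35. Of these 1, Eif4a2, was shared, 19 were Sin3B only and 0 were Sin3A only, beside 4.03%, 16.7% and 0.977% of all genes there. The lists do not hold every gene of a function. All 3 members of the DNA replication list in the stretches had a Sin3B-only region. They were Mcm4 of the replicative helicase (896 bp, with myoblast peaks of both proteins), its partner Cdc45 (776 and 596 bp) and Rfc4 (440 bp). All 4 listed genes of the mitochondrial ribosome also had one, Mrpl21 (1206 bp), Mrpl39 (953 bp), Mrpl11 (616 bp) and Mrpl40 (333 bp). Among listed respiratory chain genes Ndufv1 of complex I (517 bp) and Atp5j of ATP synthase (354 and 891 bp) had one and 2 of 4 had none.

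Both listed subunits of the Sin3 and histone deacetylase complexes in the stretches had Sin3B-only regions: Ing1 with 118 and 275 bp and Brms1 with 724 bp. A further region, of 771 bp, lay across the start of Rin1 and 817 bp from an end of Brms1. Splicing genes Sf3b2 (381 bp) and Tra2b (372 bp) had Sin3B-only regions. So did the initiation factors Eif2b5 (630 bp) and Eif4g1 (458 bp) and the ribosomal protein gene Rpl35a (353 bp). Among growth and signalling genes, Gsk3b (774 bp) and Hes1, a Notch target (394 bp), had a region, and Insr and Irs2 had none. Hes1 has no listed start, and its region lay inside the gene, 197 bp from an end that may not be the start. Mcm4 and Brms1 were likewise counted by a gene end. Actn3, the alpha-actinin of fast fibres, was the one listed sarcomere gene of the stretches. The Sin3B-only region counted for it, 600 bp wide, lay across the start of Zdhhc24, 263 bp from an end of Actn3. By the 1 kb rule no region lay at the chromatin genes Crebbp, Kat5 and Kdm2a. The same held for Tfdp1 (cell cycle), Srl (calcium handling), Psmd2 (proteasome), Fosl1 (immediate early), and Gap43 and Olig2, markers of nerve lineages. A Sin3B-only region of 836 bp, 575 bp from the start of 9430078G10Rik, did lie inside the body of Kdm2a.

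Some Sin3B-only regions came as pairs around a start. In the stretches 11 pairs of regions lay within 1 kb, and in 10 of them both were Sin3B only. Between Atp5j and Gabpa, which encodes an ETS-family factor, the starts of both genes lay in a gap of 560 bp between regions. At Cdc45 and Ufd1 the gap was 270 bp with the Ufd1 start in it, at Ing1 390 bp, at Son 613 bp, at Znrd2 123 bp and at Pcid2 and Cul4a 926 bp. With 5 kb either side of the gene body, Fam89b and Znrd2 had the most regions, 3 each, 1 of them shared.

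The promoters at regions were rich in CpG and in ETS letters beside promoters with no region, in the shared and in the Sin3B-only class. Promoters are 300 bases long (250 before and 50 after the start) and were found for 676 of the 819 genes. CpG-rich promoters (GC of at least 50% and an observed to expected CpG ratio of at least 0.6) made up 29 of 32 at shared regions (90.6%, 75.0 to 98.0%), 95 of 115 at Sin3B-only regions (82.6%, 74.4 to 89.0%), 7 of 8 at Sin3A-only regions, and 199 of 521 (38.2%, 34.0 to 42.5%) of those with no region. The 8 counted for Sin3A-only regions, here and below, include Anks3 and Eaf2, which also had a Sin3B-only region. In all 17491 promoters of the table the share was 45.7%. The median GC content was 64.7% at shared, 61.7% at Sin3B-only and 64.3% at Sin3A-only regions, and 54.0% where there was no region.

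The ETS motif CCGGAAG occurred in 15 of 32 promoters at shared regions (46.9%, 29.1 to 65.3%), 38 of 115 at Sin3B-only regions (33.0%, 24.6 to 42.4%), 3 of 8 at Sin3A-only regions and 49 of 521 without a region (9.40%, 7.04 to 12.2%), beside 11.9% of all promoters. The 3 at Sin3A-only regions were Nsun3, Anks3 and Eaf2, and Anks3 and Eaf2 also had a Sin3B-only region. The difference between the shared and the Sin3B-only class was not tested. Timmdc1 held 4 matches (144, 33, 11 and 8 bases before the start, the last 2 overlapping), and Nsun3 at a Sin3A-only region 1, 45 bases before. The CpG content moves with the motif, which itself holds CG, and its part in these shares was not tested. Neighbouring genes share promoter sequence, so their matches are not independent.

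The NRF1 motif occurred in 15.6% of promoters at shared, 14.8% at Sin3B-only and 7.10% at no region (6.60% of all). The SP1 motif GGGCGG occurred in 75.0%, 59.1% and 41.5% (46.3% of all). The CRE TGACGTCA occurred in 2 of 32 (6.25%), 9 of 115 (7.83%) and 7 of 521 (1.34%), beside 2.34% of all. E2F letters, TTTCGCGC or TTTGGCGC, occurred in 1 of 32 (3.13%), 3 of 115 (2.61%) and 1 of 521 (0.192%), beside 1.07% of all. These CRE and E2F counts are small and were not tested. E box, MEF2 and SRF letters were no more frequent at regions than elsewhere. The E box CANNTG, which includes the muscle form CAGCTG, occurred in 56.3%, 60% and 68.7% (68.8% of all), and CAGCTG in 12.5%, 13.9% and 14.2% (15.1% of all). MEF2 letters occurred in 0 of 32, 2 of 115 and 21 of 521 promoters (2.92% of all), and SRF letters in 0, 1 and 11 (1.54% of all). The TEAD letters CATTCC occurred in 15.6%, 17.4% and 15.0% (13.4% of all), and CAGCACC after 2 further bases, part of the REST motif, in 9.38%, 9.57% and 8.83% (7.08% of all). At the 8 genes of Sin3A-only regions SP1 letters occurred in 4, E boxes in 5 (CAGCTG in 1), TEAD letters in 3, the REST letters in 1, and NRF1, CRE, E2F, MEF2 and SRF letters in 0. Every motif was searched on both strands.

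**Figure D5:**
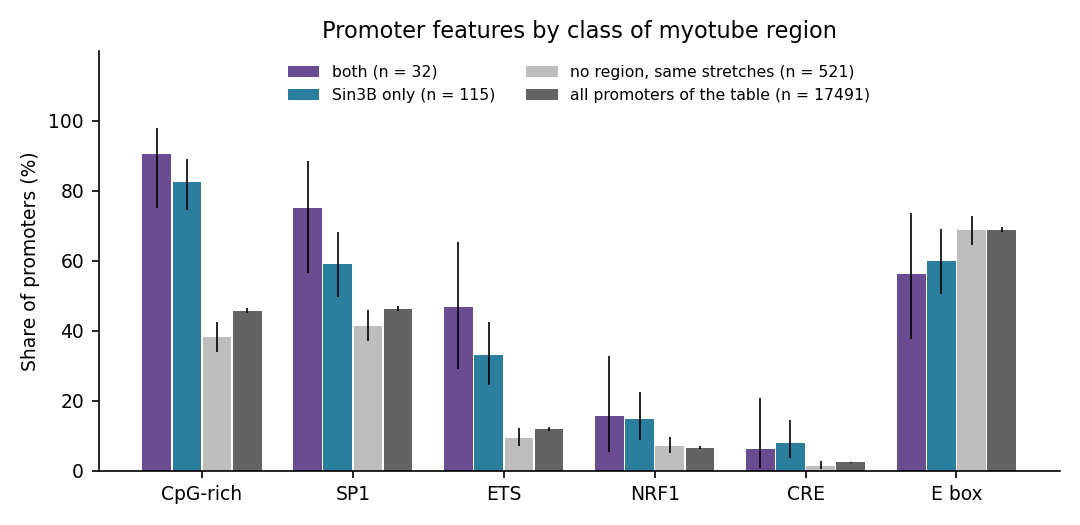
Share of 300-base promoters (%, vertical axis from 0) that are CpG-rich or hold a motif, for genes at shared regions (32), at Sin3B-only regions (115), with no region in the same stretches (521) and in the whole table (17491). Lines are 95% Clopper-Pearson intervals; CpG-rich and ETS shares stand at 90.6% and 46.9% at shared regions against 38.2% and 9.40% with no region.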

How the data were processed

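Chromatin immunoprecipitation was followed by sequencing on the Genome Analyzer after 18 PCR cycles, per the labels' protocols. The authors deposited peak positions (chromosome, start and end in bp) in 11 files without header or values. No aligner, peak caller or genome build is given in the sources used here. The files of a group were byte for byte identical, giving 4 lists from 14 samples in 6 groups.

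Regions were merged and classed with Python 3.11.15, numpy 2.4.6 and pandas 2.3.3, checked on simulated lists. Classes were compared in their shares by two-sided Fisher's exact tests with Benjamini-Hochberg adjustment (scipy 1.17.1) at 0.05, and figures drawn with matplotlib 3.10.9. Starts came from RefSeq (GRCm38.p6), whose promoter table holds 17491 of 21896 protein-coding genes (79.9%). A match of builds was read from peak positions: over 50% of peaks within 1 kb of a gene's start or end on chromosome 16 only, and runs of peaks within 500 bp of starts on chromosomes 16, 19 and 8 with a score (hits minus misses) of at least 10. The highest score elsewhere was 6. CpG and motif tests over regions needed a genome of the files' build and were replaced by promoters matched by symbol.

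Within the 3 stretches, the text names the 8 widest regions per class (all 6 for Sin3A only) and list members at Sin3A-only or shared regions. It also names up to 8 Sin3B-only members per list and genes with the most regions. Other genes were chosen after their values were seen. The classes, members and gene lists were chosen with earlier results of these data known.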

Additional observations from a re-analysis of the deposited data

How the results depend on the processing

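Over the alternatives run, 59 values kept their direction and their side of the threshold or, for counts, moved by under 1.5 times. With Sin3B cut to its widest 759 peaks there were 525 Sin3A-only, 228 shared and 530 Sin3B-only regions, and the difference in Sin3B myoblast peaks between shared and Sin3B-only regions was 8.31 points. The difference in Sin3A myoblast peaks between Sin3A-only and Sin3B-only regions fell out of significance at 2.30 points (50% overlap), 3.12 points (merging within 1 kb) and 3.23 points (peaks of 300 bp or wider). The cause was not tested. The differences in the share of regions at a start, never past the threshold, changed sign. Shared minus Sin3B only was 8.81 points with starts within 250 bp, 1.82 in the matching stretch of chromosome 16 and 2.73 in the 3 stretches. Shared minus Sin3A only was -5 and -3.57 points in these stretches, and Sin3A only minus Sin3B only was 6.82 and 6.30 points. The stretches were added after seeing the data, and there fewer regions outside the matching positions enter.

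No paired analysis was possible because the files of each group are identical, which leaves 1 list per group. Leaving out replicates would for the same reason change nothing. Tests of CpG content and motifs over regions, and their alternatives, were not run. Depth and peak height are unknown and limit every statement on a missing peak.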
